A study of Mus musculus with 5 samples.

Results

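The subject is 10 chemokine ligand genes in RAW264.7, an established mouse line of the monocyte and macrophage lineage: the CC chemokines Ccl2, Ccl3, Ccl4, Ccl5, Ccl6 and Ccl9 and the CXC chemokines Cxcl2, Cxcl10, Cxcl14 and Cxcl16. They were found by gene symbol, and all 10 are among the 21990 genes listed and the 16003 genes with an expression value. CD137 cells express Renilla luciferase together with mouse Cd137, which encodes an immune receptor related to the TNF receptors; Control cells express Renilla luciferase alone, so the luciferase is common to both. The series has 3 CD137 and 2 Control samples, and the values used here come from CD137 replicates 2 and 3 and Control replicate 2. The labels do not say how the sequences were introduced, whether a line is 1 clone or a pool, or whether replicates are separate cultures. Its title places the comparison in a study of bone metastasis, monocyte and macrophage migration and osteoclast differentiation.

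Chemokines are small secreted proteins that direct the movement of leukocytes by binding G protein-coupled receptors. CC and CXC chemokines are named for the spacing of their first conserved cysteines. Macrophages are a main source of several of them, and many of their genes are known targets of NF-kB, which receptors of the TNF family can activate, or of interferon-induced factors.

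Levels are in FPKM, fragments scaled to transcript length and library size, so that genes can be set side by side. Tnfrsf9, which encodes CD137, was at 364 and 370 FPKM in the CD137 libraries, against 5.06 FPKM in Control. Depth, as solved from the authors' p-values under the form assumed below, was 0.983 and 0.988 of that of Control in CD137 replicates 2 and 3. Of 12 macrophage markers, 9 were at 1 FPKM or more in each library, with a summed level of 1964 and 2012 FPKM in CD137 libraries and 3122 FPKM in Control; 4 of these 9 rose, 4 fell, Mrc1 and Cd163 were near 0, and Marco had no value. Of 16 markers of other cell types, 3 reached 1 FPKM in CD137 replicate 2 and 1 did in each other library. None of the 3 passed the test described below. The lymphocyte and natural killer cell markers Cd3e, Ms4a1, Ncr1 and Klrb1c had no value in any library. The T cell marker Cd3d had values, at 0.27 and 0.13 FPKM in CD137 replicates 2 and 3, against 0.04 FPKM in Control. The sums over the 16 markers were 7.90 and 3.26 FPKM in CD137 replicates 2 and 3 and 2.37 FPKM in Control. The epithelial keratin Krt8 stood at 2.60 and 0.66 FPKM in CD137 replicates 2 and 3, against 0.25 FPKM in Control. The part of the markers of other cell types in the chemokine values was not tested. Without CD137 replicate 2 the differences were 0.36 to 1.08 for the higher called chemokine genes and -1.37 for Cxcl14, on the log2(FPKM + 1) scale. That does not test the markers, because their sum in CD137 replicate 3 was also above that of Control.

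RefSeq promoter sequences (build GRCm38.p6) were at hand for 6 of the 10 genes: Ccl3, Ccl6, Ccl9, Cxcl2, Cxcl10 and Cxcl14. The 250 bases before the start are shown for Cxcl10, which had the highest ratio of CD137 to Control, for Cxcl2 and Ccl9, and for Ccl3, the most abundant of the family, because these 4 genes moved in the same direction. Capitals mark matches on either strand to an NF-kB-like motif (GGG, any 5 bases, CC), an interferon response element-like motif (GAAA, any 2 bases, GAAA) and an AP-1-like motif (TGANTCA); overlapping matches run together.
Cxcl10 (chr5:92348890-92349139, minus strand): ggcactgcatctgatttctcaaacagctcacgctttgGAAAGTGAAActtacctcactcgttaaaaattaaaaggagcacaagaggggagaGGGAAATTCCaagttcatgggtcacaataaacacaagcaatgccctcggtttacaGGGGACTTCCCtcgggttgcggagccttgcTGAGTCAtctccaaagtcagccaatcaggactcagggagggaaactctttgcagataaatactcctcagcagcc
Cxcl2 (chr5:90903649-90903898, plus strand): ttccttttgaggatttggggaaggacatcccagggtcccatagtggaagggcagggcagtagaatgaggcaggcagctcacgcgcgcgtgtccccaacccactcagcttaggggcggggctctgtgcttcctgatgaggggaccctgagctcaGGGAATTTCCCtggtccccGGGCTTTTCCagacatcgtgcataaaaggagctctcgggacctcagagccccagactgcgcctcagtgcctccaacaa
Ccl9 (chr11:83578637-83578886, minus strand): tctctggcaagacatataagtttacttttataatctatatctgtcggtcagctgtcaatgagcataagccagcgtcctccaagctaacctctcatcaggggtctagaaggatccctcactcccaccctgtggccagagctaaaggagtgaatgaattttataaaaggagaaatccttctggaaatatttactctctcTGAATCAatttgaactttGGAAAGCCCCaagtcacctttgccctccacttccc
Ccl3 (chr11:83649379-83649628, minus strand): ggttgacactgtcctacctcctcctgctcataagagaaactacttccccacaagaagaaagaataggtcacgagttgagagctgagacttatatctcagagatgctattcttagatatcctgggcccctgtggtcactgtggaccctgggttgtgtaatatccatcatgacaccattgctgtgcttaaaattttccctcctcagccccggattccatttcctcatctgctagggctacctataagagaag

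The Cxcl10 window holds all 3 motifs, and the Cxcl2 window holds the NF-kB-like motif only. The NF-kB-like letters occur in 45.8 percent of the 32851 promoter windows of this length, so a match is common. The stricter form GGGA, any base, TTTCC, found in 0.356 percent of windows, is in that of Cxcl2 alone among the 6. The interferon response element-like letters are in 2.98 percent of windows and, in the family, in those of Cxcl10 and Cxcl14; TGANTCA is in 6.75 percent and in those of Cxcl10 and Ccl9. No motif was found in the Ccl3 and Ccl6 windows, which says only that these letters are not in these bases.

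Most chemokine genes that could be tested were higher in CD137 cells, and Cxcl14 was lower. Of the 10 genes, 7 reached 1 FPKM in some library and were tested: Ccl3, Ccl4, Ccl5, Ccl9, Cxcl2 and Cxcl10 rose, and Cxcl14 fell. Cxcl10 reached 1 FPKM in its CD137 libraries only, so its place in this count already required a difference. Ccl2, Ccl6 and Cxcl16 stayed under 1 FPKM in each library and were not tested. Of all 10720 genes tested, 42.6 percent passed, 24.4 percent higher and 18.2 percent lower, so a pass by itself is common in this comparison. The test was limma on log2(FPKM + 1) with Benjamini-Hochberg adjustment over all expressed genes and a threshold of 0.05, and "rose" and "fell" are used for genes that passed. Over all 10 genes the median difference was 0.58 on that scale, beside 0.02 over all 16003 genes with a value. In a fit of all 16003 genes 0 genes passed (5281 had an unadjusted p under 0.05), and the 7 genes had adjusted p from 0.0802 to 0.0822. There is 1 Control library, assumed to vary as the CD137 libraries do. The p-values and SE thus rest on the spread between 2 CD137 libraries, which may be technical. limma also moderates the spread of each gene with that of other genes, so an SE is not the spread of that gene alone.

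**Figure D1:**
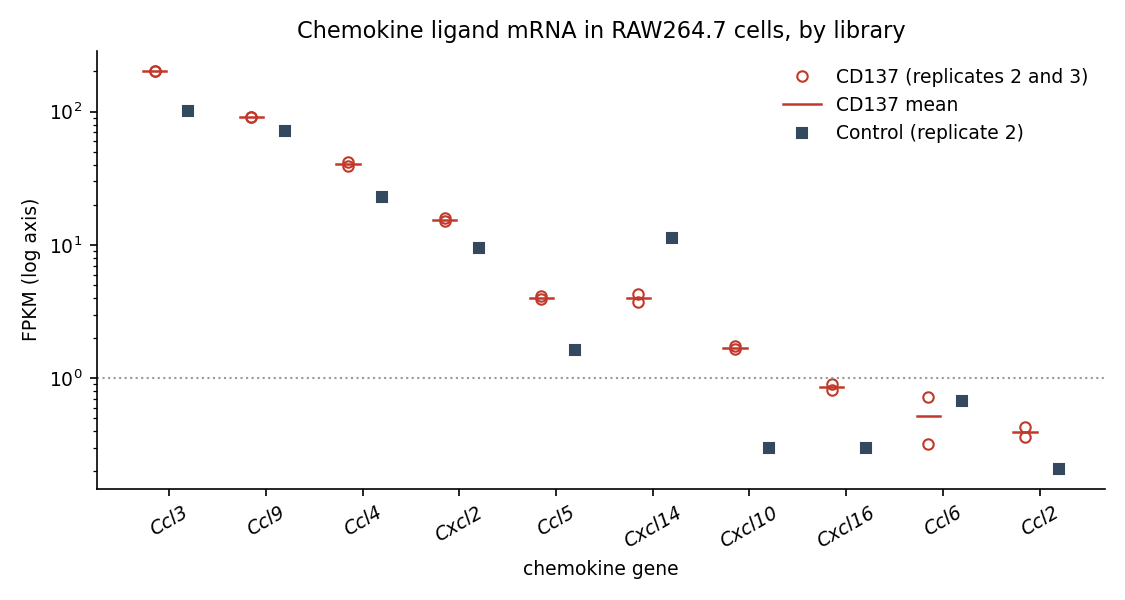
Level of each chemokine gene as FPKM on a log axis, ordered by the CD137 mean; circles are CD137 replicates 2 and 3, the line their mean, squares Control replicate 2, and the dotted line is at 1 FPKM. Cxcl14 is the only gene whose Control value, 11.2 FPKM, lies above both CD137 values, and Ccl3 leads in each library.

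The levels spanned a wide range. In CD137 cells the order was Ccl3, Ccl9, Ccl4, Cxcl2, Ccl5, Cxcl14, Cxcl10, Cxcl16, Ccl6 and Ccl2. Neighbours in that order did not overlap between the CD137 libraries, except Ccl5 with Cxcl14 and Ccl6 with Ccl2. In Control Cxcl14 came directly after Ccl4, ahead of Cxcl2, and Cxcl10 and Cxcl16 shared a value of 0.30 FPKM. In bulk RNA, a change in the share of cells that express a gene and a change in RNA per cell cannot be told apart.

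Among the CC chemokines, Ccl3 (gene ID 20302, chromosome 11 from 83647843 to 83649378, minus strand in mm10), a ligand of CCR1, was at 202 and 203 FPKM in CD137 replicates 2 and 3, against 102 FPKM in Control. Both CD137 libraries lay at about the same level, well above Control. The mean of both CD137 libraries, 203 ± 0.361 FPKM (SD, n = 2), stood at 1.99 times the Control level, with a log2 fold change of 0.99 ± 0.03 (SE; limma adjusted p = 0.000552). Of the 10720 expressed genes, 120 had a larger log2 fold change. Ccl3 ranked 320 and 319 by FPKM in the CD137 libraries and 719 in Control, among 16003 genes.

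Ccl4 (gene ID 20303, chromosome 11 from 83648624 to 83664683, plus strand), a chemokine that macrophages often make together with Ccl3, had 39.3 and 41.9 FPKM in CD137 cells, against 23.1 FPKM in Control. Both CD137 values were above the Control value. The mean of 40.6 ± 1.83 FPKM (SD, n = 2) gave a ratio of 1.76 and a log2 fold change of 0.79 ± 0.06 (SE; limma adjusted p = 0.00146). The spans given for Ccl4 and Ccl3 overlap by 755 bases on opposite strands, and strandedness is not given in the sources used here, so reads of the overlap cannot be told apart. Ccl3 stood at 5.15 and 4.84 times the FPKM of Ccl4 in the CD137 libraries, against 4.41 times in Control.

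Ccl9 (gene ID 20308, chromosome 11 from 83572917 to 83578636, minus strand), a rodent chemokine that signals through CCR1 and is known in mice as a product of osteoclasts, was the second most abundant. It had 90.5 and 91.1 FPKM in CD137 cells, against 71.0 FPKM in Control. Both CD137 values were above the single Control value, but the ratio of 1.28 was the smallest among the genes that rose (log2 fold change 0.35 ± 0.04, SE; limma adjusted p = 0.00316). Its neighbour Ccl6 (gene ID 20305, chromosome 11 from 83587886 to 83593087, minus strand), another rodent chemokine, was at 0.32 and 0.72 FPKM in CD137 cells, against 0.67 FPKM in Control. Control lay between the CD137 libraries, and Ccl6 showed no direction.

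Ccl5 (gene ID 20304, chromosome 11 from 83525778 to 83530518, minus strand), a ligand of CCR1 and CCR3, had 3.92 and 4.11 FPKM in CD137 cells, against 1.62 FPKM in Control. That is a ratio of 2.48, and a log2 fold change of 0.94 ± 0.10 (SE; limma adjusted p = 0.00265). Ccl2 (gene ID 20296, chromosome 11 from 82035577 to 82037452, plus strand), the ligand of CCR2 that recruits monocytes, was low at 0.36 and 0.43 FPKM in CD137 cells and 0.21 FPKM in Control. These Ccl2 levels rest on 5 and 6 reads in CD137 libraries and 3 reads in Control.

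The CXC chemokines went both ways. Cxcl2 (gene ID 20310, chromosome 5 from 90903899 to 90905938, plus strand), a neutrophil attractant that acts on CXCR2, had 15.03 and 15.97 FPKM in CD137 cells, against 9.52 FPKM in Control. It rose 1.63-fold, with a log2 fold change of 0.65 ± 0.07 (SE; limma adjusted p = 0.0026). Cxcl10 (gene ID 15945, chromosome 5 from 92346638 to 92348889, minus strand), an interferon-inducible ligand of CXCR3, had 1.65 and 1.75 FPKM in CD137 cells, against 0.30 FPKM in Control. The ratio of 5.67 was the highest of the family, although at a low level, and the log2 fold change of 1.05 ± 0.13 (SE; limma adjusted p = 0.00418) is dampened by the pseudocount of 1 FPKM. Cxcl10 met the limit of 1 FPKM through its CD137 libraries only, so its entry into the test already required a difference. It lies within the span of Art3 on the other strand, which was at 0.21 FPKM or less in each library.

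Cxcl14 (gene ID 57266, chromosome 13 from 56288643 to 56296794, minus strand), a chemokine known for its constitutive expression in epithelia, was the exception. It had 4.27 and 3.73 FPKM in CD137 cells, against 11.2 FPKM in Control. Both CD137 libraries were far below Control, at a ratio of 0.357 and a log2 fold change of -1.29 ± 0.10 (SE; limma adjusted p = 0.00151). Of the 10720 expressed genes, 10 had a more negative log2 fold change. Cxcl16 (gene ID 66102, chromosome 11 from 70454234 to 70459984, minus strand), a transmembrane chemokine that is cleaved to a soluble ligand of CXCR6, had 0.90 and 0.81 FPKM in CD137 cells, against 0.30 FPKM in Control. Both CD137 values were higher, at a ratio of 2.85, but the gene was tested only in the fit of all genes, where it did not pass (limma adjusted p = 0.084). Its span overlaps that of Zmynd15 by 363 bases on the opposite strand, and Zmynd15 was at 0.11 FPKM or less in each library.

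The reads behind these values were solved for all 10 genes from the authors' pairwise p-values. This assumes a form of the Poisson test that the deposited table names but does not spell out, and all read values below rest on that form. Ccl9 had 4802 and 4859 reads in CD137 libraries and 3829 in Control, and Ccl3 had 2772 and 2793 in CD137 libraries and 1417 in Control. Cxcl14 had 133 and 119 reads in CD137 libraries, against 360 in Control. The counting error of these 3 genes is small. Ccl4 had 491 and 517 reads in CD137 libraries, against 307 in Control, and Cxcl2 had 280 and 299, against 181. The low genes rest on few: Cxcl10 had 32 and 34 reads in CD137 libraries, against 6 in Control, and Cxcl16 had 27 and 18, against 6. Ccl5 had 38 and 40 reads in CD137 libraries, against 16 in Control, and Ccl6 had 8 and 18, against 17.

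Set against depth, the ratio of reads was 1.99 for Ccl3 (95% exact interval 1.88 to 2.11), 1.67 for Ccl4 (1.46 to 1.90), 1.62 for Cxcl2 (1.37 to 1.93) and 1.28 for Ccl9 (1.23 to 1.33). For Cxcl14 it was 0.355 (0.301 to 0.418). The intervals, from Clopper-Pearson limits, cover counting error only. They were wide for Cxcl10, at 5.58 (2.43 to 15.8), for Cxcl16, at 3.81 (1.62 to 10.9), and for Ccl5, at 2.47 (1.43 to 4.54). At this depth no difference was detectable for Ccl2, at 1.86 (0.491 to 10.4), and Ccl6, at 0.776 (0.405 to 1.52), whose intervals include 1. The ratio of FPKM differed from that of reads for Cxcl16, at 2.85, and for Ccl4, at 1.76; the cause was not tested.

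**Figure D2:**
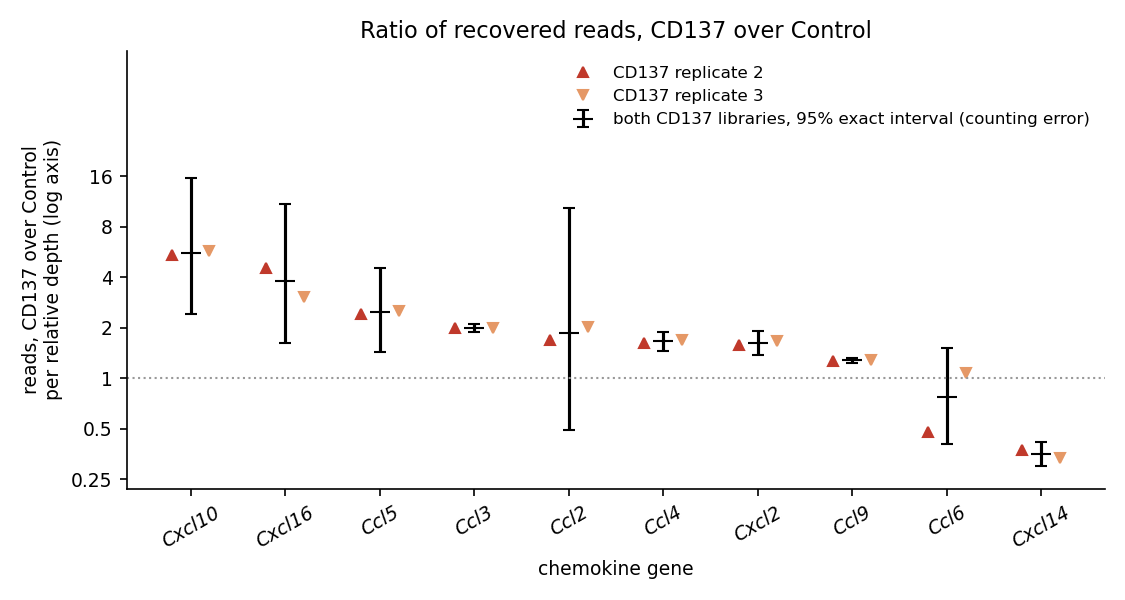
Ratio of recovered reads in CD137 over Control, per relative depth, on a log axis; triangles are the single CD137 libraries, bars the ratio of both together with its 95% exact interval for counting error. The intervals of Ccl2 and Ccl6 cross 1, and that of Cxcl14, from 0.301 to 0.418, lies wholly below it.

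The make-up of the family also differed. The summed level of the 10 genes was 359 and 363 FPKM in CD137 libraries, against 219.5 FPKM in Control, a ratio of 1.64. Without Ccl3 the ratio was 1.34. Ccl3 made up 56.4 and 55.8 percent of the sum in CD137 libraries, against 46.3 percent in Control. Ccl9 took 25.2 and 25.1 percent in CD137 libraries, against 32.3 percent in Control, although its own level was higher in CD137 cells. Cxcl14 took 1.19 and 1.03 percent, against 5.11 percent.

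The 6 CC genes summed to 337 and 341 FPKM in CD137 libraries, against 198 FPKM in Control. The 4 CXC genes summed to 21.9 and 22.3 FPKM in CD137 libraries, against 21.3 FPKM in Control, since the lower Cxcl14 and the higher Cxcl2 and Cxcl10 nearly balanced. The percentages do not depend on how a library is scaled, but the sums do. Neither was tested.

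**Figure D3:**
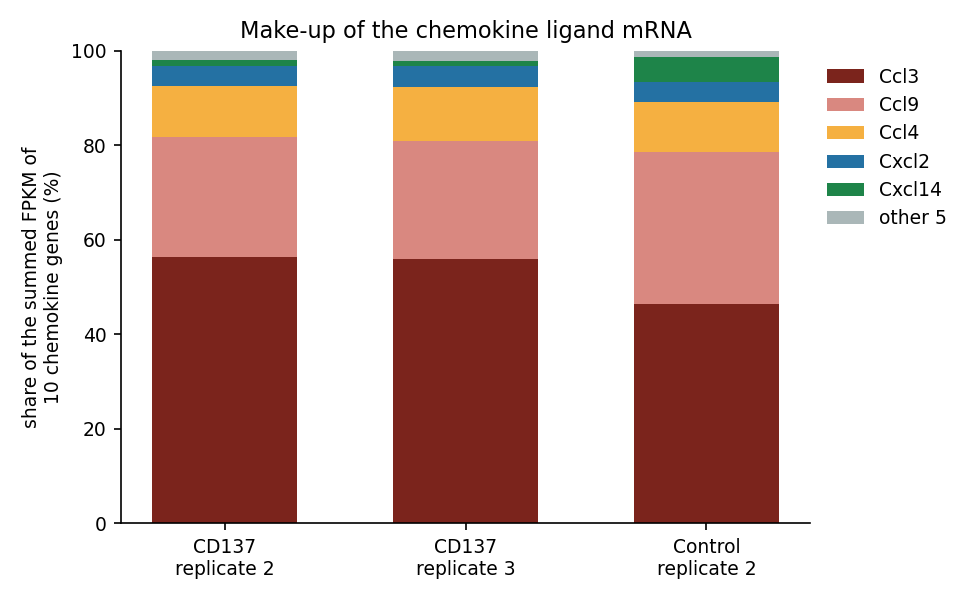
Share of each chemokine gene in the summed FPKM of the 10 genes, in percent, for CD137 replicates 2 and 3 and Control replicate 2; the other 5 genes are joined. The Ccl3 share is 56.4 and 55.8 percent in the CD137 libraries and 46.3 percent in Control, and the Cxcl14 band is the one that narrows most in relation to its size.

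Of the 10 genes, 5 lie in 1 cluster on chromosome 11, in the order Ccl5, Ccl9, Ccl6, Ccl3, Ccl4 over 139 kb. The 4 expressed genes of the cluster rose, by log2 fold changes of 0.35 to 0.99, beside 24.4 percent higher among all genes tested. The spans of Ccl3 and Ccl4 overlap, as given above. Ccl6, under 1 FPKM and not tested, lies among the 4. The nearest listed gene with a value beyond Ccl4, Wfdc17, was at 1.12 and 0.99 FPKM in CD137 cells, against 1.96 FPKM in Control. Beyond Ccl5, past Heatr9 at 0.06 FPKM or less, Taf15, an RNA-binding protein gene, was at 147 and 144 FPKM in CD137 cells, against 99.8 FPKM in Control. Both were named after their values were seen.

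**Figure D4:**
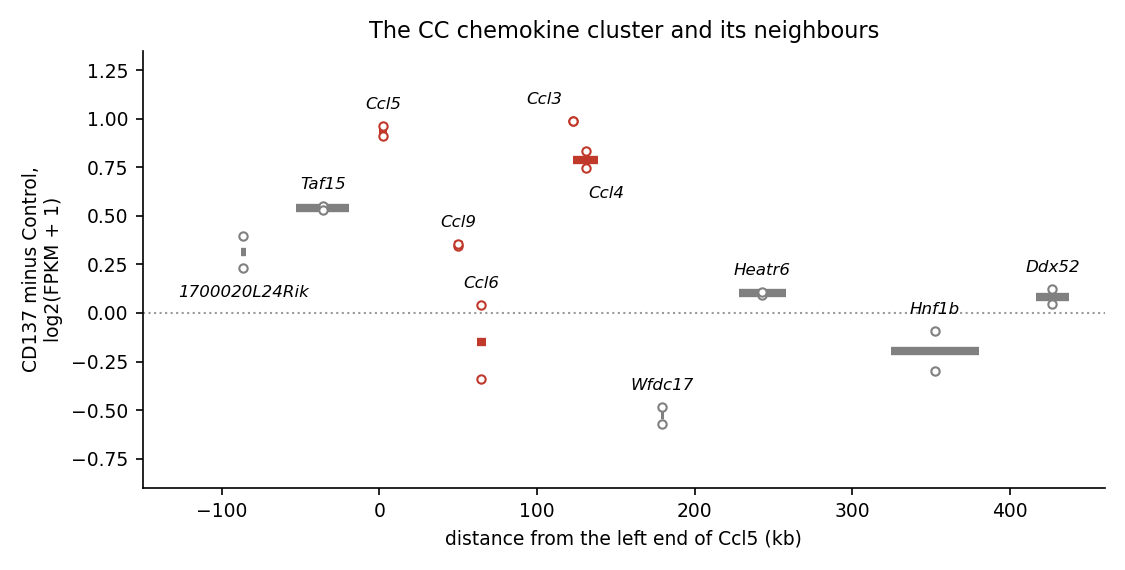
Difference of log2(FPKM + 1) in CD137 minus Control along the CC chemokine cluster; each bar spans a gene at the mean of the CD137 libraries, circles are CD137 replicates 2 and 3, chemokine genes are red, neighbours grey, and genes under 0.25 FPKM in each library are left out. Ccl3, Ccl4, Ccl5 and Ccl9 lie above 0, and the Ccl6 circles lie on either side of it.

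The authors' deposited table holds a Poisson test of single libraries in pairs, which gave 8 of the 10 genes, all but Ccl2 and Ccl6, an adjusted value under 0.05 against Control for CD137 replicate 2 and for CD137 replicate 3. The share of all genes was 40.2 percent in each pair. Between CD137 replicates 3 and 2 in the authors' deposited table, 0 of the 10 did, where 1.43 percent of all genes did. Both pairs with Control share that library, and the test sets 1 library against another rather than 1 condition against another.

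Other chemokine ligands were nearly absent. Of 28 on the list, 12 had no value and 15 stayed at 0.42 FPKM or less in each library. Ccl25, known as a thymus and gut chemokine, was the exception, with 3.47 and 3.60 FPKM in CD137 cells, against 2.06 FPKM in Control, and it rose (log2 fold change 0.57 ± 0.10, SE; limma adjusted p = 0.00975).

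Of 24 chemokine receptor genes 7 were expressed; 1 rose and 1 fell, where 42.6 percent of all genes tested passed. Ccrl2, a receptor that binds chemoattractants without signalling, rose to 2.23 and 2.54 FPKM in CD137 cells, against 1.07 FPKM in Control. Cx3cr1, the receptor of fractalkine, fell to 20.6 and 21.4 FPKM in CD137 cells, against 72.8 FPKM in Control, with a log2 fold change of -1.75 ± 0.05 (SE; limma adjusted p = 0.000552). The 5 that did not pass, named after their values were seen, were Ccr1, Ccr2, Ccr10, Cxcr2 and Cxcr3, each between 0.93 and 2.23 FPKM in all libraries.

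Genes that act downstream of chemokine receptors moved both ways: of 29 expressed, 6 rose and 9 fell, beside 24.4 percent higher and 18.2 percent lower among all genes tested. Rgs1, which ends G protein signalling, was at 30.2 and 30.1 FPKM in CD137 cells, against 14.6 FPKM in Control, and Gng5, a G protein gamma subunit, at 181 and 175 FPKM, against 119 FPKM. Gnai2, the main inhibitory G protein alpha subunit of leukocytes, was at 170 and 173 FPKM in CD137 cells, against 263 FPKM in Control, and the Src family kinase Fgr at 4.73 and 5.63 FPKM, against 8.77 FPKM. Rgs1 and Gng5 rose, and Gnai2 and Fgr fell.

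Among 9 expressed genes of proteins that cleave or bind chemokines, 3 rose and 0 fell, beside 24.4 and 18.2 percent of all genes tested; after rescaling by upper quartile 2 were called lower. Mmp9, a protease that trims several chemokines, was at 4.79 and 5.14 FPKM in CD137 cells, against 0.65 FPKM in Control, with a log2 fold change of 1.85 ± 0.10 (SE; limma adjusted p = 0.000875). Like Cxcl10, Mmp9 met the limit of 1 FPKM through its CD137 libraries only, so its call and its place in the count already required a difference. Srgn, the proteoglycan core that holds chemokines in secretory granules, was at 390 and 370 FPKM in CD137 cells, against 275 FPKM in Control. The syndecan Sdc4 was at 95.1 and 95.9 FPKM, against 86.0 FPKM. Adam10, the protease known to shed Cxcl16, was named after its values were seen: it was at 57.0 and 55.9 FPKM in CD137 cells and 55.9 FPKM in Control, and did not pass.

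Of 25 transcription factors and inhibitors known from chemokine promoters, all expressed, 12 rose and 2 fell, beside 24.4 and 18.2 percent of all genes tested. Nfkb2, an NF-kB subunit of the non-canonical pathway, was at 56.3 and 56.7 FPKM in CD137 cells, against 22.9 FPKM in Control, and its partner Relb at 26.6 and 26.2 FPKM, against 11.7 FPKM. Fos, a subunit of AP-1, was at 8.93 and 8.56 FPKM in CD137 cells, against 2.66 FPKM in Control, and the interferon regulatory factor Irf7 at 5.59 and 5.52 FPKM, against 2.07 FPKM. All 4 rose, Nfkb2 by a log2 fold change of 1.27 ± 0.04 (SE; limma adjusted p = 0.000552). Rela, Nfkb1, Rel and Irf8 were named after their values were seen. The canonical subunit Rela was at 30.7 and 32.7 FPKM in CD137 cells and 31.3 FPKM in Control, and did not pass. The NF-kB subunit Nfkb1 rose, at 39.59 and 38.87 FPKM in CD137 cells, against 34.45 FPKM in Control. The 2 genes that fell were the NF-kB subunit Rel, at 5.50 and 4.59 FPKM, against 7.24 FPKM, and Irf8, at 21.1 and 21.4 FPKM, against 26.6 FPKM.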

How the data were processed

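Poly(A) RNA of RAW264.7 cells was sequenced, per the labels' protocols (oligo-dT selection); groups and replicate numbers come from sample titles. The authors deposited FPKM per gene, rounded to 0.01, and, for pairs of libraries, log2 ratios of FPKM and p-values of a Poisson test, per the file headers; the authors' adjusted values exceed 1 for some genes and were treated as a score. The submitters' processing notes list HISAT2, Bowtie2, RSEM and mm10 but give no roles. Genes and lists were chosen with earlier results of these data known.

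log2(FPKM + 1) was fitted with limma 3.58.1 (R 4.3.3; mean-variance trend, 1 residual degree of freedom) over genes with at least 1 FPKM in some library, a filter chosen with earlier results known. Whole reads were solved from the deposited p-values, taken to be 2 times the smaller tail of reads in 1 library given the other, a formula that the file headers do not state; each of the 10 genes had 1 solution. Both steps were run on simulated data. The simulated p-values for the reads were made with the same assumed formula, so that run does not test the formula. The 1 solution per gene holds within the range of reads searched around the value expected from the FPKM. Beyond the 10 genes, those named are up to 4 called genes per list with the largest change, or said to be chosen after their values were seen. Alternatives changed the pseudocount, filter, scaling, trend and libraries. A few genes that this rule would name are not reported here.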

Additional observations from a re-analysis of the deposited data

How the results depend on the processing

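In the fit of all genes with a value, 0 of the 10 chemokine genes were called higher or lower. In that fit 0 genes passed in all, and 0 of each list, while the differences themselves were the same. That fit includes more genes, near-silent ones among them, and why no gene passed was not tested. In the other 6 alternatives with a test, 6 chemokine genes were called higher and 1 lower, with limma adjusted p up to 0.0214. The size of the adjusted p depended strongly on the setting. For Ccl3 the limma adjusted p was 6.35e-11 after rescaling by upper quartile and 0.0116 without a trend. Over the same 6, genes called in all ran from 3801 of 10720 without a trend to 5316 of 10706 after rescaling by upper quartile. The median difference of the 10 genes, 0.58 on the log2(FPKM + 1) scale, was 0.75 and 0.72 with pseudocounts of 0.1 and 0.5 FPKM, and 0.56 after rescaling by median ratio or by upper quartile. Without CD137 replicate 2 or 3 it was 0.58 in each case; then no residual degrees of freedom are left, so calls could not be counted, and Control could not be left out. Without CD137 replicate 2 the difference of Ccl6 was 0.04, against -0.15. Genes that cleave or bind chemokines had 2 lower calls after rescaling by upper quartile and 1 in limma without a trend, against 0; without a trend, receptor signalling genes had 3 higher calls, against 6, and transcription factors 1 lower call, against 2. The cause of these shifts was not tested. Read ratios, an alternative chosen after seeing the data, moved Ccl4 to 1.67 and Cxcl16 to 3.81. No paired analysis was possible because the groups share only 1 replicate number among the libraries with values. Few reads limit Ccl2, Ccl5, Ccl6, Cxcl10 and Cxcl16.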

Other observations

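The expressed genes whose CD137-to-Control differences lay nearest to those of Ccl3 over the 3 libraries, by Euclidean distance of the log2(FPKM + 1) differences of CD137 replicates 2 and 3, were Slc38a6 (distance 0.0126), Cyb561a3 (0.0153) and Rgs1 (0.0163), and 39 genes lay within 0.1. Slc38a6, a solute carrier gene, was at 26.5 and 26.9 FPKM in CD137 cells, against 13.0 FPKM in Control. Among the genes near Cxcl14 were Lyz1 (distance 0.0599) and Mybl2 (0.102). Mybl2, a transcription factor gene of the cell cycle, was at 10.8 and 10.4 FPKM in CD137 cells, against 26.5 FPKM in Control. Lyz1 has a near-identical copy, Lyz2, so its reads are uncertain. With 3 libraries that share 1 Control, such likeness is a description of size and direction.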
